A study of Arabidopsis thaliana with 3 samples.

Results

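The TRICHOME BIREFRINGENCE-LIKE (TBL) genes of Arabidopsis thaliana were examined in leaves that overexpress the transcription factor WIN1. The genes were TBL23, TBL24, TBL26, TBL33, TBL34, TBL37, TBL39 and TBL45, and they were found as the probe sets that the array annotation pairs with one of these 8 names. This gave 8 of the 3592 genes that a probe set is paired with, read by 9 of the 8247 probe sets on the array, 1 for each gene and a second one for TBL33. The levels were measured on 3 arrays, each hybridised with RNA pooled from leaves of several plants. The control array held empty-vector plants, transformed with a binary vector without an insert. The other arrays held T2 progeny of the 35S:WIN1 lines 13 and 22, independent transgenic lines in which the 35S promoter, active in most plant tissues, drives WIN1. There was thus 1 pooled array per condition, the control had no replicate, and the sources used here do not give the age or growth conditions of the plants.

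TBL proteins are a plant-specific family, members of which attach acetyl groups to cell wall polysaccharides in the Golgi before these are secreted. The founding gene, TBR, is named for a mutant whose leaf hairs lose the birefringence given by crystalline cellulose. Different family members act on different polymers, such as xylan, mannan, xyloglucan and pectin, and acetylation alters how these polymers associate and how easily they are digested. WIN1, also called SHN1, is an AP2/ERF factor best known for raising wax and cutin at the leaf surface, which lies on the outer epidermal wall. None of the sources used here holds the sequence of a TBL gene, protein or probe, so none is printed.

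The deposited values were linear intensities, whose median was 84.1 on the control array, 70.2 for line 13 and 35.2 for line 22, so all values below were first scaled to a common trimmed mean. Line 22 stood apart: over the 5773 probe sets bright enough to be kept, its log2 intensities correlated with the control at r = 0.84, against 0.965 for line 13. Over those probe sets the log2 ratio to the control had an SD of 0.936 for line 22 and 0.402 for line 13. The leaf label was checked against mesophyll markers, of which 4 of 9 listed genes had a probe set paired with that gene alone: RCA, LHCB4.1, PRK and SBPASE. Their scaled intensities summed to 7038 in the control, 7050 in line 13 and 10779 in line 22. No listed marker of trichome and epidermal identity, xylem, flower, seed or root was matched to a probe set, so those cell types were not assessed. No probe set was paired with the WIN1 locus (0 probe sets), so overexpression itself was not checked. In pooled leaf RNA, fewer cells of a type and less RNA per cell cannot be told apart.

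All 8 genes had 1 kept probe set, and the 9th probe set, the second one of TBL33, was too dim to be kept. None of the 8 kept probe sets passed the limma test of the WIN1 lines against the control at an adjusted p of 0.05, where 0.0346% of all 5773 did (limma adjusted p = 1 for each of the 8). Without adjustment, 0 of the 8 had a p under 0.05, against 2.23% of all kept probe sets, and their p ranged from 0.232 for TBL24 to 0.871 for TBL45. None was at least 2-fold from the control the same way in both lines, a size reached by 1.42% of all kept probe sets. The limma SE of these log2 ratios lay between 0.624 and 0.756, so for each of these genes the 95% limma interval reached past a 2-fold difference in at least 1 direction. With so few arrays every value is imprecise. Ratios are differences of log2(scaled intensity + 18.6), a scale on which the ratios of dim genes come out too small.

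**Figure D1:**
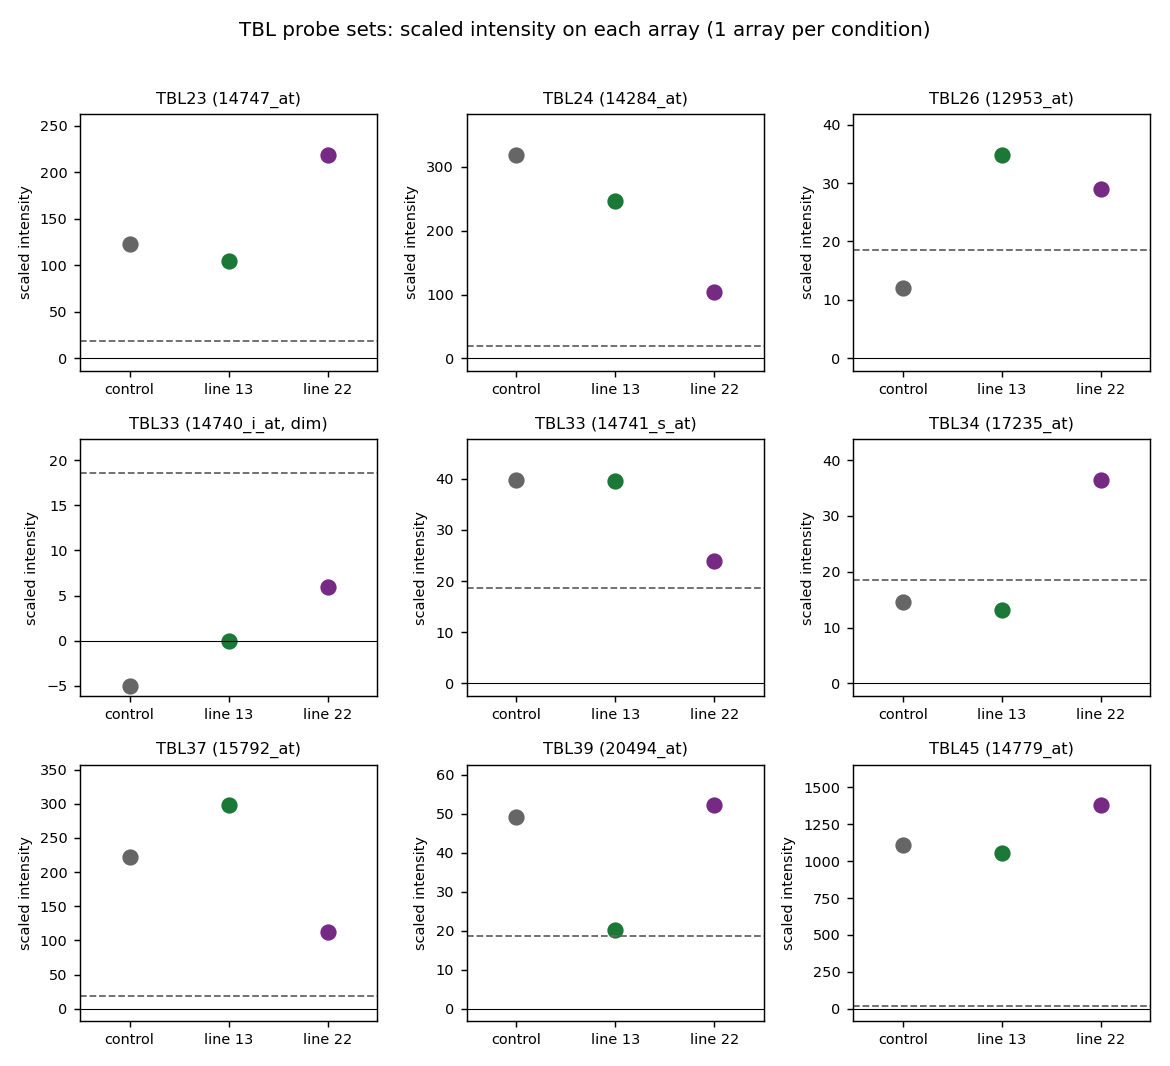
Scaled intensity (linear, vertical axis, a separate range in each panel) of the 9 TBL probe sets on the control, line 13 and line 22 arrays. Each point is 1 array, the dashed line is the pseudocount of 18.6 and the solid line is 0. TBL24 is highest in the control and lowest in line 22. TBL26 is lowest in the control and was kept through the lines in which it was higher.

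The first group comprised TBL23, TBL24 and TBL26, which encode mannan O-acetyltransferases, enzymes that acetylate the glucomannans of the wall. TBL23 and TBL24 differed from one another in their pattern over the arrays, and TBL26 was dim.

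TBL24 (AT4G23790, probe set 14284_at) gave scaled intensities of 318.8 in the control, 246.3 in line 13 and 103.6 in line 22. Both lines lay below the control, at 77.3% of its level in line 13 and 32.5% in line 22. The mean was a log2 ratio of -0.91 ± 0.79 (SD between the lines, n = 2; limma SE 0.754, adjusted p = 1), with a 95% limma interval from -2.41 to 0.59. Its size ranked above that of the other 7 genes with this scaling, but below that of TBL26 with common-median scaling (-0.75 against 0.80), quantile normalization (-0.78 against 0.80) and a pseudocount at the 5th percentile (-0.98 against 1.15). Most of it came from line 22, whose log2 ratio was -1.47 against -0.35 in line 13. Among all kept probe sets, 10.4% lay as far from the control in line 22 and 25.3% in line 13. TBL24 was the only one of the 8 kept TBL probe sets at least 2-fold from the control in line 22, where 23.8% of all kept probe sets were, and none of the 8 reached that size in line 13 (2.74% of all). That none did so in line 13 rests on the pseudocount and the scaling. TBL39 passed 2-fold there without scaling (-1.07), with a floor (-1.29) and with a pseudocount at the 5th percentile (-1.14). TBL26 did so with that pseudocount (1.27). In line 22, too, TBL24 was not alone under every setting. TBL23 passed 2-fold there with common-median scaling (1.13) and TBL37 without scaling (-1.61). TBL26 (1.03) and TBL34 (1.125) did so with a pseudocount at the 5th percentile.

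TBL26 (AT4G01080, probe set 12953_at) was dim, with scaled intensities of 12.1 in the control, 34.8 in line 13 and 28.9 in line 22. Both lines lay above the control, and TBL26 was the only gene of the 8 for which this was so (27.1% of all kept probe sets were higher in both lines). The log2 ratios were 0.80 in line 13 and 0.63 in line 22, a mean of 0.71 ± 0.12 (SD between the lines, n = 2; limma SE 0.635, adjusted p = 1), with a 95% limma interval from -0.55 to 1.98. This narrow SD holds none of the error of the control array, which both ratios share. The control value lay under the pseudocount, which therefore sets the size of the ratio: with a pseudocount at the 5th percentile the ratios were 1.27 and 1.03, past 2-fold in both lines, and with one at the 40th percentile 0.41 and 0.31. TBL26 was kept through the lines in which it was higher: its control level of 4.94 on the log2 scale lay under the filter at 5.135, so its direction supports nothing further. In line 13, 5.09% of all kept probe sets lay as far from the control, and 9.86% of those in the same decile of brightness.

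TBL23 (AT4G11090, probe set 14747_at) gave scaled intensities of 123.3 in the control, 104.7 in line 13 and 218.8 in line 22. Line 22 was the high array, and line 13 lay just under the control. The log2 ratios were -0.20 and 0.74, a mean of 0.27 ± 0.67 (SD between the lines, n = 2; limma adjusted p = 1). On the deposited values without scaling, line 22 (155.9) and the control (156.4) were nearly level and the mean ratio turned to -0.24. Within the mannan group, with the main scaling, 1 gene was lower in both lines, 1 was higher in both and 1 lay on opposite sides of the control. The higher one, TBL26, was kept through the lines in which it was higher, so its side is no contrast with the others. Without scaling, both lines lay below the control for TBL23 (-0.49 and -0.0042).

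**Figure D2:**
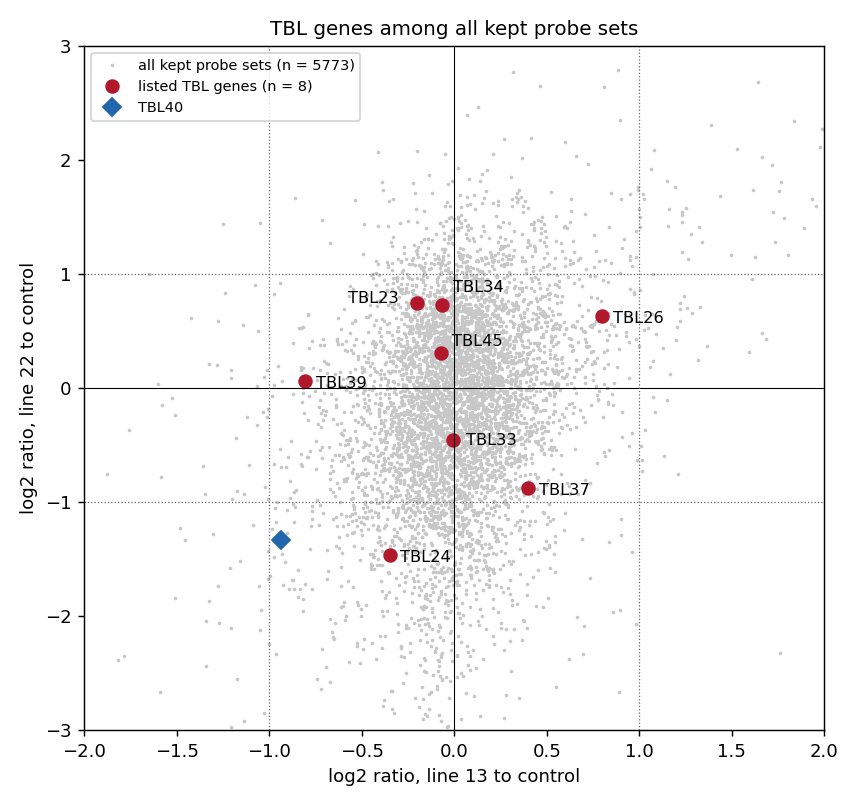
Log2 ratio to the control in line 13 (horizontal) and line 22 (vertical) for all 5773 kept probe sets (grey), of which 66 lie outside the frame, the 8 listed TBL genes (red) and TBL40 (blue). Dotted lines mark a 2-fold difference. TBL24 is the listed gene furthest below the control in line 22, TBL26 is the one above the control in both lines, and no listed gene lies past the dotted lines on both axes.

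The second group comprised TBL33 and TBL34, which encode xylan O-acetyltransferases. TBL33 acts on xylosyl residues that carry a glucuronic acid side chain, and xylan is the main hemicellulose of secondary walls such as those of xylem.

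TBL33 (AT2G40320) had a pair of probe sets. The first, 14741_s_at, gave a scaled intensity of 39.7 in the control, 39.5 in line 13 and 24 in line 22. Line 13 and the control were level (log2 ratio -0.01) and line 22 was lower (log2 ratio -0.45), a mean of -0.23 ± 0.32 (SD between the lines, n = 2; limma adjusted p = 1). The second, 14740_i_at, had scaled values of -5 in the control, 0 in line 13 and 5.9 in line 22, all under the pseudocount, so no level above background was measured with it. In Affymetrix naming the suffix of 14741_s_at marks probes that may match more than 1 transcript, so its signal may not come from TBL33 alone.

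TBL34 (AT2G38320, probe set 17235_at) gave scaled intensities of 14.5 in the control, 13.1 in line 13 and 36.4 in line 22. Line 22 was the only array above the pseudocount. The log2 ratios were -0.06 in line 13 and 0.73 in line 22, a mean of 0.33 ± 0.56 (SD between the lines, n = 2; limma adjusted p = 1). In line 22, 37.2% of all kept probe sets lay as far from the control, so this ratio was of ordinary size for that array. TBL34 was kept only through line 22, the array where it was high. Its mean log2 level over the control and line 13 was 5.02, under the filter at 5.135, so its side of the control in line 22 is no contrast with TBL33.

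The third group comprised TBL37, TBL39 and TBL45, for which no polymer or enzyme activity is named here.

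TBL45 (AT2G30010, probe set 14779_at) gave scaled intensities of 1112 in the control, 1058 in line 13 and 1378 in line 22. It was brighter than 96.4% of all probe sets on the array, and its lines differed little from the control, with log2 ratios of -0.07 and 0.31 and a mean of 0.12 ± 0.27 (SD between the lines, n = 2; limma adjusted p = 1). The sign in line 22 rested on the scaling. The deposited values were 1410 in the control, 1078 in line 13 and 982 in line 22, and without scaling the log2 ratio of line 22 was -0.51. In the brightest decile of kept probe sets, to which TBL45 belongs, the median log2 ratio in line 22 was 0.41, above that of TBL45.

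TBL37 (AT2G34070, probe set 15792_at) gave scaled intensities of 221.4 in the control, 297.7 in line 13 and 112.1 in line 22. Line 13 lay above the control and line 22 below it, at 134.5% and 50.6% of its level. The log2 ratios were 0.40 and -0.88, a mean of -0.24 ± 0.90 (SD between the lines, n = 2; limma adjusted p = 1). Line 13 was thus above line 22 by 1.27 on the log2 scale.

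TBL39 (AT2G42570, probe set 20494_at) gave scaled intensities of 49.1 in the control, 20.1 in line 13 and 52.2 in line 22. Line 13 was the low array, at 40.9% of the control, and line 22 was level with the control. The log2 ratios were -0.81 and 0.06, a mean of -0.37 ± 0.62 (SD between the lines, n = 2; limma adjusted p = 1). In line 13, 5.02% of all kept probe sets lay as far from the control, and 7.11% of those in the same decile of brightness.

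Across the 8 genes, 5 lay on opposite sides of the control in the lines (TBL23, TBL34, TBL37, TBL39 and TBL45), 2 were lower in both (TBL24 and TBL33) and 1 was higher in both (TBL26). Among all kept probe sets the corresponding shares were 42.5%, 30.4% and 27.1%. This tally changed without scaling, where 5 were lower in both lines (TBL23, TBL24, TBL33, TBL39 and TBL45), 2 lay on opposite sides and 1 was higher in both. The median log2 ratio of the 8 was -0.07 in line 13 and 0.18 in line 22, beside 0.01 and -0.09 over all kept probe sets. The SD of the ratios over the 8 genes was 0.48 in line 13 and 0.819 in line 22, beside 0.402 and 0.936 over all kept probe sets. Line 22 was further from the control than line 13 for 6 of the 8, as for 77.1% of all kept probe sets. TBL26 and TBL34 were kept through arrays in which they were high. In line 22 both lie above the control (0.63 and 0.73), which raises the median of the 8 there. The medians, SDs and counts over the 8 are therefore no contrast with all kept probe sets. The sides of TBL26 and TBL34 are set aside in what follows. Of the other genes, with the main scaling, TBL24 and TBL33 were lower in both lines, and TBL23, TBL37, TBL39 and TBL45 lay on opposite sides. These genes thus had no common direction with that scaling. Without scaling all of them but TBL37 were lower in both lines, as was the median over all kept probe sets (-0.27 and -0.78).

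The comparison between the lines has 1 array on each side and no test. TBL24 and TBL37 differed at least 2-fold between the lines, 2 of 8 genes beside 21.9% of all kept probe sets. Both were higher in line 13 (15.3% of all kept probe sets were, by that size), by 1.12 for TBL24 and 1.27 for TBL37 on the log2 scale. Which genes passed 2-fold, and in which direction, depended on the scaling. With common-median scaling and with quantile normalization neither TBL24 (0.69 and 0.83) nor TBL37 (0.84 and 0.996) did, and 3 others did, all lower in line 13: TBL23 (-1.38 and -1.18), TBL34 (-1.07 and -1.01) and TBL39 (-1.19 and -1.18). With cyclic loess TBL37 was higher in line 13 by that size (1.08) and TBL23 (-1.19) and TBL39 (-1.07) were lower. With the main scaling, TBL23 (-0.95), TBL39 (-0.87), TBL34 (-0.79) and TBL45 (-0.38) were lower in line 13 than in line 22, and TBL33 (0.45) and TBL26 (0.17) were higher. TBL34 was kept only through line 22, where it was high, so its lower level in line 13 supports nothing further with any scaling. Over the 108 genes with several kept probe sets, the log2 ratio varied between probe sets of the same gene with an SD of 1.12 for line 22 and 0.216 for line 13. In line 22, TBL24 was the only one of the 8 genes further from the control than that SD, as were 19.2% of all kept probe sets. In line 13, TBL24, TBL26, TBL37 and TBL39 were, 4 of 8 beside 44.5% of all. The same-gene SD covers probe sets alone, not the spread between pools of plants. In line 22 it was no smaller than the SD over all kept probe sets (0.936), while in line 13 it was smaller (against 0.402). By this measure, probe sets of the same gene differed in line 22 as much as probe sets in general. Each of the 8 genes had 1 kept probe set, so none of these ratios has a second reading of its own.

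Of the 45 genes that RefSeq names TBL by symbol or synonym, 13 had a probe set paired with that gene alone, the 8 above and 5 others. Probe sets paired with several genes or with none were not counted. Of these 5, TBL15, TBL30, TBL42 and TBL43 were too dim to be kept. For TBL43 the control read 24.9 and both lines lay below 0, and the other dim genes had scaled values of at most 2.1 on any array. The fifth was AT2G31110, for which RefSeq gives the synonym TBL40, and which the array annotation lists only by locus. The TBL40 probe set 13428_at gave a scaled intensity of 213.8 in the control, 102.7 in line 13 and 73.7 in line 22. Both lines lay below the control, at 48% and 34.5% of its level. The log2 ratios were -0.94 and -1.33, a mean of -1.14 ± 0.28 (SD between the lines, n = 2; limma SE 0.751, adjusted p = 1, unadjusted p = 0.134), with a 95% limma interval from -2.63 to 0.36. This mean ratio was larger in size than that of any of the 8 genes, and in line 13 it lay just short of the 2-fold rule. TBL40 met that rule with a pseudocount at the 5th percentile (-1.03 and -1.49) or a floor in its place (-1.06 and -1.54). It also did so without scaling (-1.24 and -2.04). With the larger pseudocount, quantile normalization and cyclic loess it missed the rule in line 13. With common-median scaling it missed the rule in both lines (-0.98 and -0.98).

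**Figure D3:**
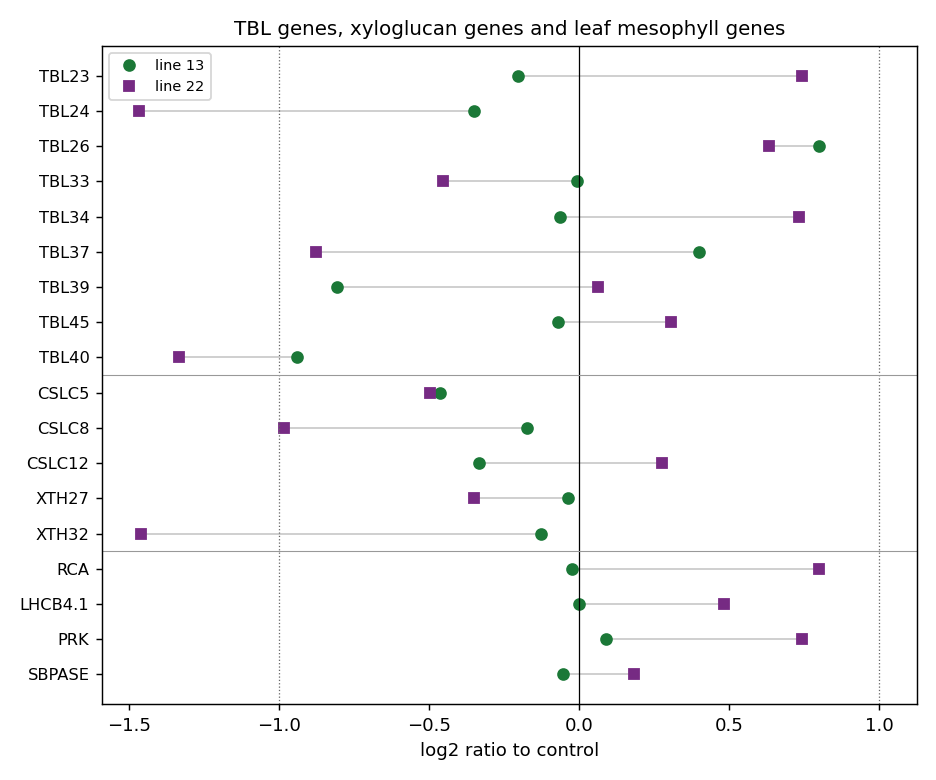
Log2 ratio to the control in line 13 (circles) and line 22 (squares) for the 8 listed TBL genes and TBL40 (top), xyloglucan genes (middle) and leaf mesophyll genes (bottom), 1 kept probe set and 1 array per point. Dotted lines mark a 2-fold difference. TBL40 is furthest below the control in line 13, and the TBL genes lie on both sides of the control.

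The other wall genes that could be set beside the family were few. The lists of wall O-acetylation, pectin acetylesterase, mannan, xylan, xyloglucan, pectin and cellulose genes held 169 other genes. Of these, 16 had a probe set paired with that gene alone and 6 were kept. None of the 6 passed the limma test (0 of 6, against 0.0346% of all kept probe sets), and none was at least 2-fold from the control the same way in both lines (0 of 6, against 1.42%). One of the 6 was TBL40, and the median log2 ratio over the 6 was -0.25 in line 13 and -0.74 in line 22. Of the 169, 15 names, TBR among them, were not matched to a single RefSeq gene and were not looked up further. A name shared by several genes, or with a proteasome subunit, counted as not matched. None of the names found from the pectin acetylesterase, xylan, pectin or cellulose lists had a probe set paired with that gene alone. CSLA1 and CSLA3, mannan synthase genes, were dim. The remaining 5 kept genes belong to xyloglucan, the main hemicellulose of the growing primary wall. CSLC5, CSLC8 and CSLC12, of the family that makes its glucan backbone, had log2 ratios of -0.46, -0.17 and -0.33 in line 13 and -0.50, -0.98 and 0.28 in line 22. XTH27 and XTH32, of the family that cuts and rejoins xyloglucan chains, had -0.04 and -0.13 in line 13 and -0.35 and -1.46 in line 22. In line 22, XTH32 had a scaled intensity of 42.6 against 149.6 in the control and 135.3 in line 13. On that array 23.8% of all kept probe sets were at least 2-fold from the control. XTH21, XTH26, XTH29 and XTH33 were dim.

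The mesophyll genes lay above the control in line 22 with the main scaling. RCA, LHCB4.1, PRK and SBPASE, which act in carbon fixation and light harvesting, had median log2 ratios of -0.01 for line 13 and 0.61 for line 22, beside 0.41 for line 22 over the brightest decile of kept probe sets. Without scaling all 4 lay below the control in line 22 (median -0.21). With common-median scaling the line 22 median was 1.03. With quantile normalization it was 0.18, and 3 of the 4 lay above the control. After cyclic loess normalization, which removes a trend of the ratio with brightness, the line 22 log2 ratios were -1.30 for TBL24, -0.70 for TBL37, 0.97 for TBL23 and 0.0031 for TBL45. The mesophyll median in line 22 was then 0.18, with 3 of the 4 genes above the control.

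By a likeness measured over the 3 arrays, the distance between pairs of log2 ratios, the genes nearest to TBL24 were AT2G22100 (distance 0.03), AT2G41990 (0.07) and AT2G23300 (0.07). Their log2 ratios were -0.37, -0.28 and -0.41 in line 13 and -1.45, -1.47 and -1.49 in line 22. With so few arrays many probe sets lie close to any gene. By their locus names, 5 of the 8 TBL genes lie on chromosome 2 and 3 on chromosome 4, and in the RefSeq annotation none neighbours another, with at least 266 annotated genes between any of them.

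**Figure D4:**
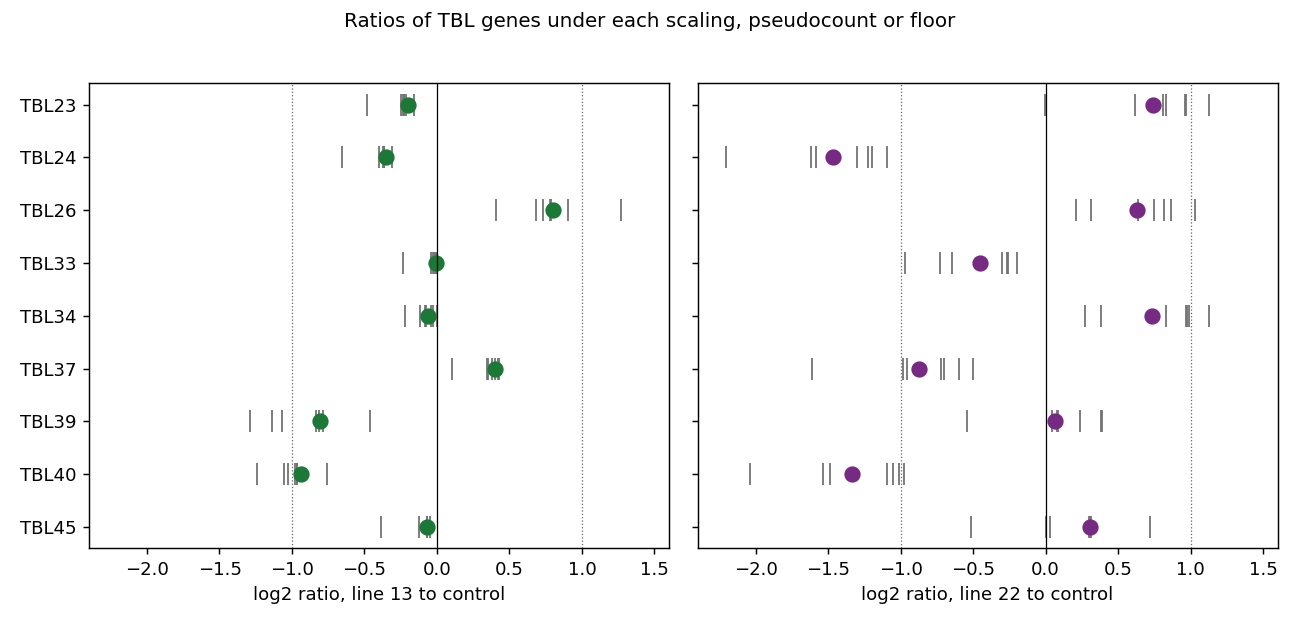
Log2 ratio to the control of the 8 listed TBL genes and TBL40 in line 13 (left) and line 22 (right). Circles are the values reported and ticks are those under other scalings, pseudocounts or a floor, with dotted lines at a 2-fold difference. TBL24 and TBL40 lie below the control and TBL26 above it in both lines under each of these settings, whereas the ratios of TBL23, TBL39 and TBL45 in line 22 reach the other side of the control. TBL26 was kept through the lines in which it was higher, so its side supports nothing further.

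The direction of TBL24 (lower) held in both lines under each alternative scaling, pseudocount and floor, as the plot of ratios by setting shows. TBL26 was higher in both lines under each of these settings too. All of these settings re-process the same arrays, and TBL26 was kept through the lines in which it was higher. Its direction therefore supports nothing further, and with the stricter filter TBL26 was not kept. The mean log2 ratio of TBL24 ranged from -1.43 without scaling to -0.75 after scaling to a common median, beside -0.91. That of TBL26 ranged from 0.36 to 1.15, the ends being set by the pseudocounts at the 40th and 5th percentiles. No alternative gave any of the 8 genes an adjusted p below 0.964.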

How the data were processed

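The labels describe 3 Affymetrix Arabidopsis genome arrays hybridised with labelled cRNA from pooled leaf RNA. The deposited table holds linear intensities, 1 per probe set and array. The program that summarised the probes is not given in the sources used here, and no header or label records a background step or a common scaling. Chip lot and scan day were the same for all arrays, per the file headers, so no batch could be fitted.

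Each array was scaled to a common mean trimmed by 2% at each end (multiplied by 0.788 for the control, 0.981 for line 13 and 1.40 for line 22). Negative values were replaced by 0, and log2 was taken after adding 18.6, a pseudocount at the 20th percentile of all scaled values above 0. Probe sets above the 30th percentile of mean log2 intensity were kept, 5773 of 8247. These were fitted together with limma (version 3.58.1, R 4.3.3; lmFit, eBayes with trend), and p-values were Benjamini-Hochberg adjusted over all 5773. The fit has 1 residual degree of freedom, from the difference between the lines, and assumes that the lone control varies like them. The procedure was run on simulated data with equal noise on the control and the lines, and planted changes well above 2-fold. That run does not bear on ratios as small as those of the TBL genes, or on a control that varies differently. Differences between the lines have no test.

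Probe sets were paired with genes through GEO's platform annotation, and gene IDs were updated through RefSeq (assembly TAIR10.1). Of the 8247 probe sets, 3794 had 1 gene, 70 several and 4383 none. Named genes were every probe set of the 8 TBL genes, all or up to 6 kept members of each list of wall polysaccharide genes plus any that passed the test or the 2-fold rule, and the 3 probe sets most like the TBL gene with the largest mean ratio. The members and lists were chosen with earlier results of these data known. Alternatives changed the scaling, the pseudocount, the filter, eBayes, the fold threshold and the lines used. Cyclic loess normalization was added after the data had been seen.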

Additional observations from a re-analysis of the deposited data

How the results depend on the processing

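No paired analysis was possible because there is 1 control array and the groups share fewer than 2 replicate numbers. With 1 line left out, limma could not be fitted. None of the 8 TBL genes passed the limma test under any alternative. The mean log2 ratio turned for TBL23 (-0.24) and TBL45 (-0.45) without scaling, and for TBL45 with quantile normalization (-0.010) and cyclic loess (-0.034). Over the single lines it turned for TBL23 (-0.20 to 0.74), TBL34 (-0.063 to 0.73), TBL37 (-0.88 to 0.40), TBL39 (-0.81 to 0.064) and TBL45 (-0.071 to 0.31). The median ratio of the 8 was -0.52 without scaling, like that of all kept probe sets (-0.52), 0.11 with common-median scaling, and -0.067 to 0.18 over the single lines. These medians include TBL26 and TBL34, kept through arrays in which they were high. With the main settings 2 TBL genes were 2-fold apart between the lines, beside 1262 of all 5773 kept probe sets. They numbered 5 with the smaller (5th percentile) pseudocount, beside 1638 of all kept probe sets, and 1 with the larger (40th percentile), beside 752. With a floor they numbered 4, beside 1667. They numbered 3 with common-median scaling, quantile normalization and cyclic loess, beside 1594, 1187 and 1202. At thresholds of 1.5-fold and 3-fold they numbered 5 and 0, beside 2691 and 451. TBL24 and TBL37 were not among them with common-median scaling or quantile normalization, where TBL23, TBL34 and TBL39 were, lower in line 13. The count of wall genes 2-fold apart the same way was 1 without scaling, with the smaller pseudocount, with a floor, without the filter and at 1.5-fold, and 0 to 2 over the single lines.

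Of all kept probe sets, 2 passed adjusted p. This count was 1 after common-median scaling, with the smaller pseudocount, cyclic loess, no trend and robust eBayes, 0 with quantile normalization, a floor and no filter, and 4 with the larger pseudocount. The 82 that were 2-fold apart in both lines became 129 without scaling, 147 and 39 with the smaller and larger pseudocount, 146 with a floor, 47 with a filter at the 50th percentile, 275 and 26 at 1.5-fold and 3-fold, and 158 to 1372 over the single lines. The 1262 apart between the lines became 752 with the larger pseudocount, 2691 at 1.5-fold and 451 at 3-fold. Fold thresholds, filters and larger pseudocounts change counts by construction. Other causes were not tested.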
